A study of Drosophila melanogaster with 4 samples.

Results

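The genes described here are the fly caspases with an activator, an inhibitor and an upstream death gene of the pathway: Strica, Dronc, Drice, Dcp-1, Dredd, Damm, Decay, Dark, Diap1 and hid. They were selected by symbol, and Strica was chosen because its nuclear RNA was higher after RNAi against Top3β, so its values are given as a description with no test. All 10 genes were found among the 13929 genes counted. The libraries hold RNA from nuclei of outer photoreceptors, captured by nuclei immuno-enrichment (NIE) with GFP placed on the nuclear envelope by the KASH domain of Msp300 under the photoreceptor driver Rh1-Gal4. The siTop3β flies carried the RNAi transgene TRiP.JF01282 against Top3β, and the siControl flies carried UAS-mCherry-RNAi, which is directed at a reporter protein with no fly counterpart. Both groups also carried UAS-Dcr-2.D, which strengthens RNAi, with UAS-GFP-Msp300KASH and rh1-GAL4, so Dcr-2 and the tag are present in the controls too. Males of both groups were taken at Day 30 after eclosion, at ZT 6 of the light cycle, and each group had 2 libraries. Rh1-Gal4 is active in the R1 to R6 photoreceptors once they have differentiated, so these data concern mature neurons.

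Caspases are cysteine proteases that are made as inactive precursors and that carry out apoptosis. In the fly, Dronc, Dredd and Strica have long prodomains and are grouped with the initiators, and Drice, Dcp-1, Decay and Damm have short ones and are grouped with the effectors. Dark, the fly homologue of Apaf-1, assembles the complex that activates Dronc, and Diap1 binds Dronc and the effectors and holds them inactive. Hid binds Diap1 and releases the caspases, and the death genes themselves are often switched on by transcription. Caspases are activated as proteins, so an RNA level does not report caspase activity.

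Total counts ran from 3239201 to 4267208 per library, at which 3 counts correspond to 0.697 to 0.871 CPM (counts scaled to the library size adjusted by edgeR's TMM factors). The replicate 1 library of siTop3β had a count for 12922 genes, against 10104 to 10537 in the other libraries. The RNA that the transgene targets, Top3β (Top3beta, FBgn0026015), had 57 and 71 counts in the libraries labelled siTop3β and 70 and 57 in siControl, a log2 fold change of 0.13 (95% interval -0.39 to 0.64, edgeR adjusted p = 0.957). The direction of each difference therefore rests on the labels. In all, 85 of 7029 tested genes (1.21%) passed an adjusted p of 0.05 by edgeR's quasi-likelihood test, and 27 of them (0.384%) were higher in siTop3β. The count was 52 without siControl replicate 1, 131 without siTop3β replicate 1 and 424 without siTop3β replicate 2.

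Strica (FBgn0033051, on the minus strand of chromosome 2R, 6020311 to 6023144) had far more nuclear RNA in siTop3β than in siControl photoreceptors. It had 87 and 106 counts in the siTop3β libraries, against 12 and 14 counts in the siControl libraries. After normalization these were 25.2 and 28.3 CPM in siTop3β and 2.79 and 4.01 CPM in siControl. The groups did not overlap, and the lowest siTop3β library was 6.30 times the highest siControl library. The means were 26.8 ± 2.16 CPM in siTop3β and 3.40 ± 0.863 CPM in siControl (SD, n = 2 each), a fitted log2 fold change of 2.99, or 7.93-fold. Over the 4 pairs of libraries across the groups, the ratio of siTop3β to siControl CPM lay between 6.30 and 10.2. In bulk nuclear RNA, a change in the share of cells that express a gene and a change in RNA per nucleus cannot be told apart.

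**Figure D1:**
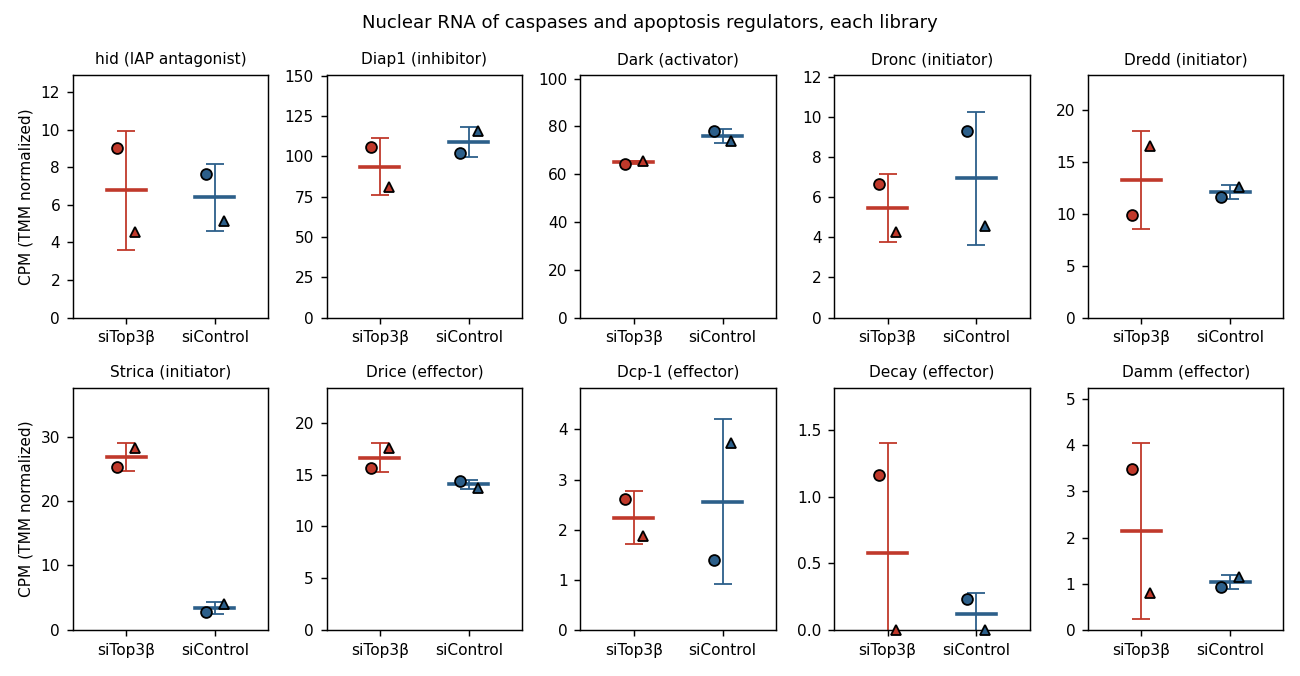
TMM-normalized CPM of the 10 genes in each library, with its own axis from 0 for each gene. Circles are replicate 1 and triangles replicate 2, the line is the group mean and the bar 1 SD on either side (n = 2). Strica stands at 25.2 and 28.3 CPM in siTop3β against 2.79 and 4.01 CPM in siControl, and for 7 of the other 9 genes the libraries of both groups overlap.

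None of the tested members besides Strica was called, a count near that of genes at large. Of the 9 genes besides Strica, 7 passed the filter on low counts and were tested, and 0 of the 7 were called, against 1.21% of all tested genes. An unadjusted p under 0.05 in edgeR was found for 0 of the 7, against 9.09% of all tested genes. DESeq2 called 0 of the 4 to which it gave an adjusted p, against 51 of 4225 (1.21%) over the table. With so few members, counts of 0 are near these shares, and the intervals below say more about each gene. Their log2 fold changes ran from -0.37 to 0.24 with a median of -0.16, beside a median of 0.02 over all tested genes. In the CPM values 1 of the 7 (Drice) was higher in both siTop3β libraries than in either siControl library, as were 19.6% of all tested genes. Dark was lower in both, as were 19.0% of all tested genes.

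Upstream of the caspases, hid (FBgn0003997, chromosome 3L: 18167745 to 18185641), which sets off apoptosis by binding Diap1, had 9.00 and 4.54 CPM in siTop3β and 7.66 and 5.15 CPM in siControl. The groups overlapped, and in each of them replicate 1 was the higher library. Its log2 fold change was 0.06 (95% interval -0.81 to 0.92, edgeR adjusted p = 0.990). Diap1 (FBgn0260635, chromosome 3L: 16038410 to 16051034) is the inhibitor that restrains Dronc, Drice and Dcp-1 in living cells. It had the highest level of the members, also per kb of exon, with 105.9 and 81.2 CPM in siTop3β and 102.2 and 115.6 CPM in siControl. The ranges overlapped, with a log2 fold change of -0.22 (95% interval -0.53 to 0.09, edgeR adjusted p = 0.757). Dark (FBgn0263864, chromosome 2R: 17020027 to 17026703), the adaptor that activates Dronc, had 64.4 and 65.4 CPM in siTop3β and 78.0 and 73.8 CPM in siControl. The siTop3β libraries were the lower ones, but the log2 fold change of -0.23 did not pass the test (95% interval -0.54 to 0.09, edgeR adjusted p = 0.752). For Diap1 and Dark the intervals were the narrowest of the members, and they leave room for a level in siTop3β between 69.3% and 107% of siControl for Diap1 and between 68.6% and 106% for Dark.

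Of the initiators, Dronc (FBgn0026404, chromosome 3L: 9968479 to 9971002), the caspase of the Dark complex, had 6.67 and 4.27 CPM in siTop3β and 9.29 and 4.58 CPM in siControl. The siControl libraries differed from each other by more than the group means did. Its log2 fold change was -0.37 (95% interval -1.26 to 0.53, edgeR adjusted p = 0.894). Dredd (FBgn0020381, chromosome X: 633622 to 635545) acts mainly in the Imd branch of innate immunity. It had 9.87 and 16.6 CPM in siTop3β and 11.6 and 12.6 CPM in siControl, so both siControl values lay between the siTop3β values. Its log2 fold change was 0.14 (95% interval -0.47 to 0.74, edgeR adjusted p = 0.963). The upper ends of the intervals were 1.44-fold for Dronc and 1.67-fold for Dredd.

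Among the effectors, Drice (FBgn0019972, chromosome 3R: 29799658 to 29801584), the main executioner in many fly tissues, had 15.7 and 17.6 CPM in siTop3β and 14.4 and 13.7 CPM in siControl. Both siTop3β libraries were above both siControl libraries, by a small margin. The log2 fold change of 0.24 did not pass the test (95% interval -0.29 to 0.78, edgeR adjusted p = 0.877). Dcp-1 (FBgn0010501, chromosome 2R: 23551313 to 23553547), the close relative of Drice, had only 9 and 7 counts in siTop3β and 6 and 13 counts in siControl. At this depth its interval was the widest of the tested members, from 0.306-fold to 2.62-fold around a log2 fold change of -0.16 (edgeR adjusted p = 0.985). Decay and Damm, whose roles in the fly are less well defined, were below the filter. Damm (FBgn0033659, chromosome 2R: 11864112 to 11866383) had 12 and 3 counts in siTop3β and 4 and 4 in siControl, the 12 being in the library with the most genes detected. When all genes with a count were fitted, its log2 fold change was 0.95, with a 95% interval from -1.34 to 3.25. That interval includes both no change and a difference as large as that of Strica. Decay (FBgn0028381, chromosome 3R: 16499058 to 16501050) had 4 and 0 counts in siTop3β and 1 and 0 in siControl, which is too few for a ratio. A count of 0 allows up to 0.801 CPM in siTop3β replicate 2 and up to 0.858 CPM in siControl replicate 2.

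To compare levels between caspases, CPM was divided by the exonic length of each gene. Strica, with 2.72 kb of exon, had 9.28 and 10.4 CPM per kb in siTop3β and 1.02 and 1.47 CPM per kb in siControl. It was thus first of the 7 caspases in both siTop3β libraries, and number 4 and 5 in siControl replicates 1 and 2. In siTop3β it made up 30.2% and 31.7% of the summed CPM per kb of the 7 caspases, against 4.79% and 7.04% in siControl. The sum over the 6 other caspases was 21.5 and 22.4 CPM per kb in siTop3β and 20.3 and 19.5 CPM per kb in siControl. Both siTop3β sums were above both siControl sums, while Strica alone differed by several times that margin. The replicate 1 sum of siTop3β includes Damm at 1.72 and Decay at 1.04 CPM per kb, from 12 and 4 counts. Both genes are below the filter, and the separation of the sums rests on them. The other initiators, Dronc and Dredd, together had 9.09 and 11.8 CPM per kb in siTop3β and 11.4 and 9.64 CPM per kb in siControl. The 4 effectors together had 12.4 and 10.6 CPM per kb in siTop3β and 8.93 and 9.82 CPM per kb in siControl. Here, too, both siTop3β sums were the higher ones, as were both siTop3β values of Drice alone. These sums are descriptions and were not tested.

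In siTop3β the order by mean level was Strica at 9.84 ± 0.794, Drice at 8.64 ± 0.716, Dredd at 7.73 ± 2.77, Dronc at 2.72 ± 0.843, Dcp-1 at 1.28 ± 0.300, Damm at 1.06 ± 0.935 and Decay at 0.522 ± 0.739 CPM per kb (SD, n = 2). The first 3 are not separated beyond their spread, and neither are the last 3. In siControl the order was Drice at 7.30 ± 0.243, Dredd at 7.08 ± 0.406, Dronc at 3.44 ± 1.65, Dcp-1 at 1.46 ± 0.941, Strica at 1.25 ± 0.317, Damm at 0.511 ± 0.0752 and Decay at 0.105 ± 0.148 CPM per kb (SD, n = 2). Drice and Dredd there were within their spread of each other, as were Dronc and Dcp-1, and Dcp-1 and Strica. Measured against 6987 tested genes with a known exonic length, Strica lay above 62.0% of them in siTop3β and above 7.11% in siControl. Drice lay above 58.3% in siTop3β and 54.0% in siControl, and Dredd above 55.1% in siTop3β and 53.1% in siControl. Diap1, at 33.7 and 25.8 CPM per kb in siTop3β and 32.5 and 36.8 in siControl, was above Strica in every library.

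**Figure D2:**
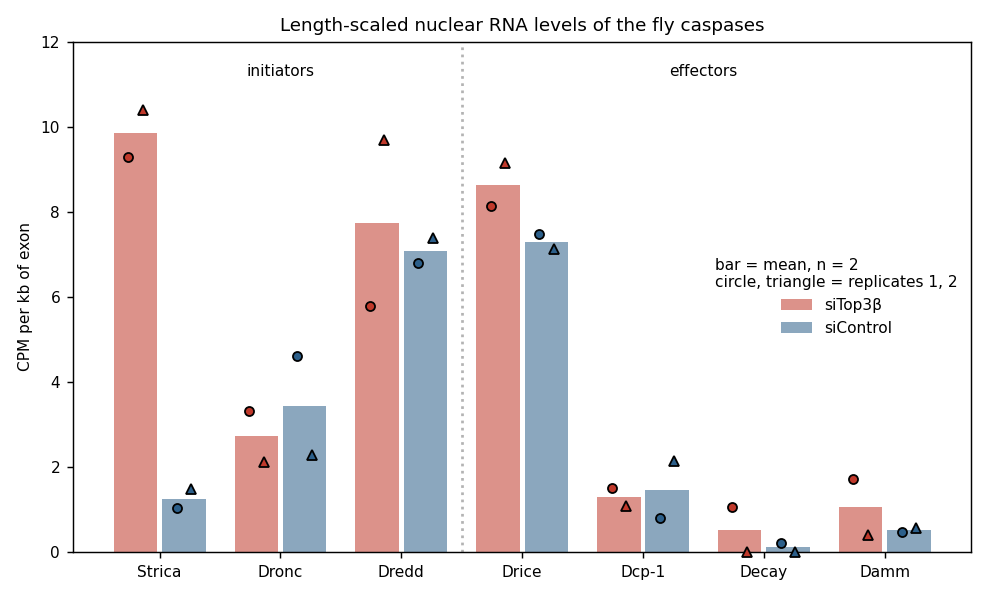
CPM per kb of exon of the 7 fly caspases, with siTop3β in red and siControl in blue. Bars are means of 2 libraries, and circles and triangles are replicates 1 and 2. The Strica bar is at 9.84 in siTop3β and 1.25 in siControl, while Drice and Dredd stand between 7.08 and 8.64 in both groups.

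Several members share sequence with a gene on the other strand, and the sources used here do not give how reads were assigned to genes or strands. The last 385 bases of Strica and of Pngl (FBgn0033050), which encodes the enzyme that removes sugars from misfolded glycoproteins, overlap tail to tail, and this stretch is 14.2% of the exonic length of Strica. Pngl had 18.6 and 17.1 CPM in siTop3β and 11.8 and 15.7 CPM in siControl. Its siTop3β libraries were the higher ones, with a log2 fold change of 0.38 that did not pass the test (95% interval -0.16 to 0.92, edgeR adjusted p = 0.764). Of the other members, Dcp-1 lies wholly within the span of pita, a zinc finger gene, and shares 239 exonic bases with it. The log2 fold change of pita was 0.58 (95% interval 0.05 to 1.11, edgeR adjusted p = 0.459). Dredd shares 12 bases with Mybbp1A (log2 fold change 0.33, 95% interval -0.61 to 1.27, edgeR adjusted p = 0.922). Damm shares 600 bases, 29.6% of its exons, with CG42531, which had 9 and 0 counts in siTop3β and 0 in both siControl libraries. Annotated antisense RNAs cover 56.9% of the exons of Dark and 11.0% of those of Diap1 and were not analysed here.

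No other gene within 20 kb of Strica was called. Within 20 kb there are 6 other genes with counts, and 0 of the 6 were called by edgeR, with 1 at an unadjusted p under 0.05. Over all tested genes these shares are 1.21% and 9.09%, so counts of 0 and 1 among 6 genes are near the background. Their log2 fold changes ran from -0.23 to 0.42. The nearest upstream, SCAP, which escorts the lipid regulator SREBP, had 167.2 and 172.8 CPM in siTop3β and 122.4 and 131.3 CPM in siControl. It was higher in both siTop3β libraries, but its log2 fold change of 0.42 did not pass the test (95% interval 0.14 to 0.70, edgeR adjusted p = 0.154). Src42A, a tyrosine kinase gene beyond Pngl and Act42A, had a log2 fold change of -0.22 (95% interval -0.50 to 0.05, edgeR adjusted p = 0.698), and CG14591, beyond SCAP, had 0.21 (95% interval -0.08 to 0.50, edgeR adjusted p = 0.752).

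**Figure D3:**
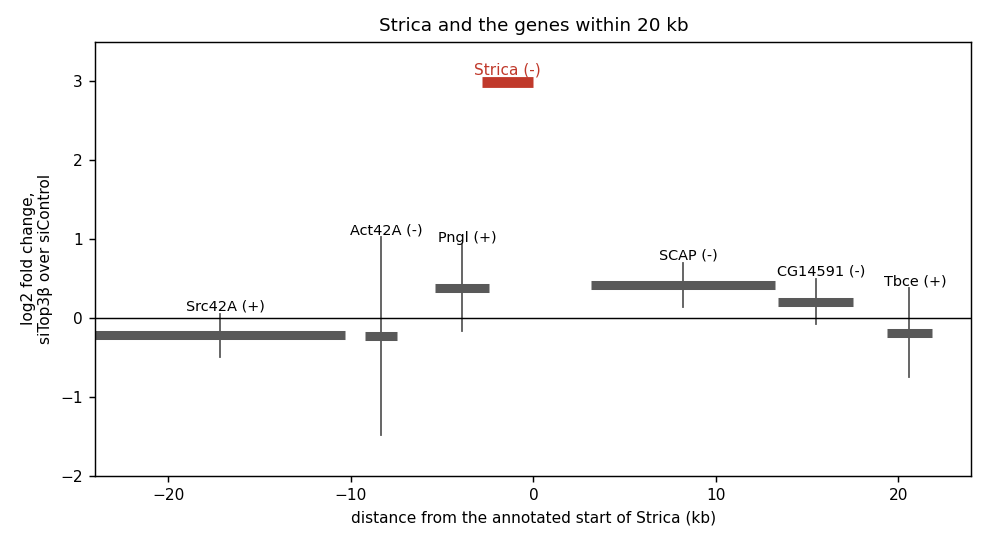
Log2 fold change of siTop3β over siControl for Strica and the 6 genes within 20 kb, against the distance from the annotated start of Strica in kb. Horizontal bars are gene spans with their strand in brackets, and vertical lines are 95% intervals. Strica is at 2.99 with no interval, and its neighbours lie between -0.23 and 0.42.

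The wider death machinery gave no calls either. Lists of IAPs, IAP antagonists, adaptors, Bcl-2 proteins, regulators of IAP and caspase turnover, executors of DNA breakdown, engulfment genes, axon degeneration genes and death receptors hold 59 genes together with the caspases other than Strica. Of these, 44 were tested and 0 were called higher or lower in siTop3β by edgeR, where 1.21% of all tested genes were called. The unadjusted p was under 0.05 for 1 of the 44, against 9.09% of all tested genes, and DESeq2 called 0 of the 30 to which it gave an adjusted p, against 1.21%. Log2 fold changes ran from -0.39 to 1.00 with a median of -0.03, beside 0.02 over all tested genes, and were positive for 17 genes and negative for 27. In CPM, 5 of the 44 (11.4%) were higher in both siTop3β libraries and 9 (20.5%) lower in both, against 19.6% and 19.0% of all tested genes.

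Of the inhibitors and their antagonists, Diap2 and the giant IAP Bruce had log2 fold changes of -0.05 and -0.18, and Bruce was lower in both siTop3β libraries (edgeR adjusted p = 0.981 and 0.788). The death genes reaper, grim and sickle, which act beside hid, were at or near the detection floor: rpr had 2 and 0 counts in siTop3β and 0 in both siControl libraries, grim had 2 and 0 in siTop3β and 1 and 3 in siControl, and skl had 8 and 0 in siTop3β and 2 and 2 in siControl. Their counts in siTop3β came wholly from replicate 1. The mitochondrial protease HtrA2, which cleaves Diap1, had the smallest p of the antagonists, with a log2 fold change of 0.49 (edgeR adjusted p = 0.879). Fadd, the adaptor that joins Imd to Dredd, had 3.19 and 4.01 CPM in siTop3β and 1.86 and 1.72 CPM in siControl. Its log2 fold change of 1.00 was the largest of the 44 and had a 95% interval from -0.42 to 2.41 (edgeR adjusted p = 0.753). The ubiquitin-conjugating enzyme eff, through which Diap1 marks proteins, had a log2 fold change of -0.26 (edgeR adjusted p = 0.605). Neither member of the Bcl-2 family was tested. Debcl had 10 and 7 counts in siTop3β and 1 and 3 in siControl, and Buffy had 3 and 1 in siTop3β and 6 and 3 in siControl. When all genes with a count were fitted, the log2 fold change of Debcl was 2.06 (95% interval -0.57 to 4.68). That of Buffy was -1.02 (95% interval -4.80 to 2.75). The interval of Debcl includes both no change and a difference as large as that of Strica.

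Further downstream, AIF, a mitochondrial flavoprotein linked to DNA breakdown, had a log2 fold change of 0.34 (edgeR adjusted p = 0.847). Drep4, the homologue of the caspase-activated nuclease, had -0.25 (edgeR adjusted p = 0.885). The engulfment receptor drpr, by which glia clear dying neurons, had the smallest p of all 44 genes. It had 195.9 and 211.2 CPM in siTop3β and 227.1 and 275.3 CPM in siControl, with a log2 fold change of -0.30 (95% interval -0.59 to -0.02, edgeR adjusted p = 0.493). The groups did not overlap, but the difference did not pass the adjusted threshold. In axon degeneration the smallest p was that of hiw, a ubiquitin ligase, at -0.17 (edgeR adjusted p = 0.824), and Sarm, the NAD-consuming trigger of axon loss, had -0.16 (edgeR adjusted p = 0.827). Of the death receptors and their signalling genes, imd had the smallest p, with a log2 fold change of 0.46 (edgeR adjusted p = 0.840). The TNF ligand egr was below the filter, with 14 and 4 counts in siTop3β and 4 and 3 in siControl.

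**Figure D4:**
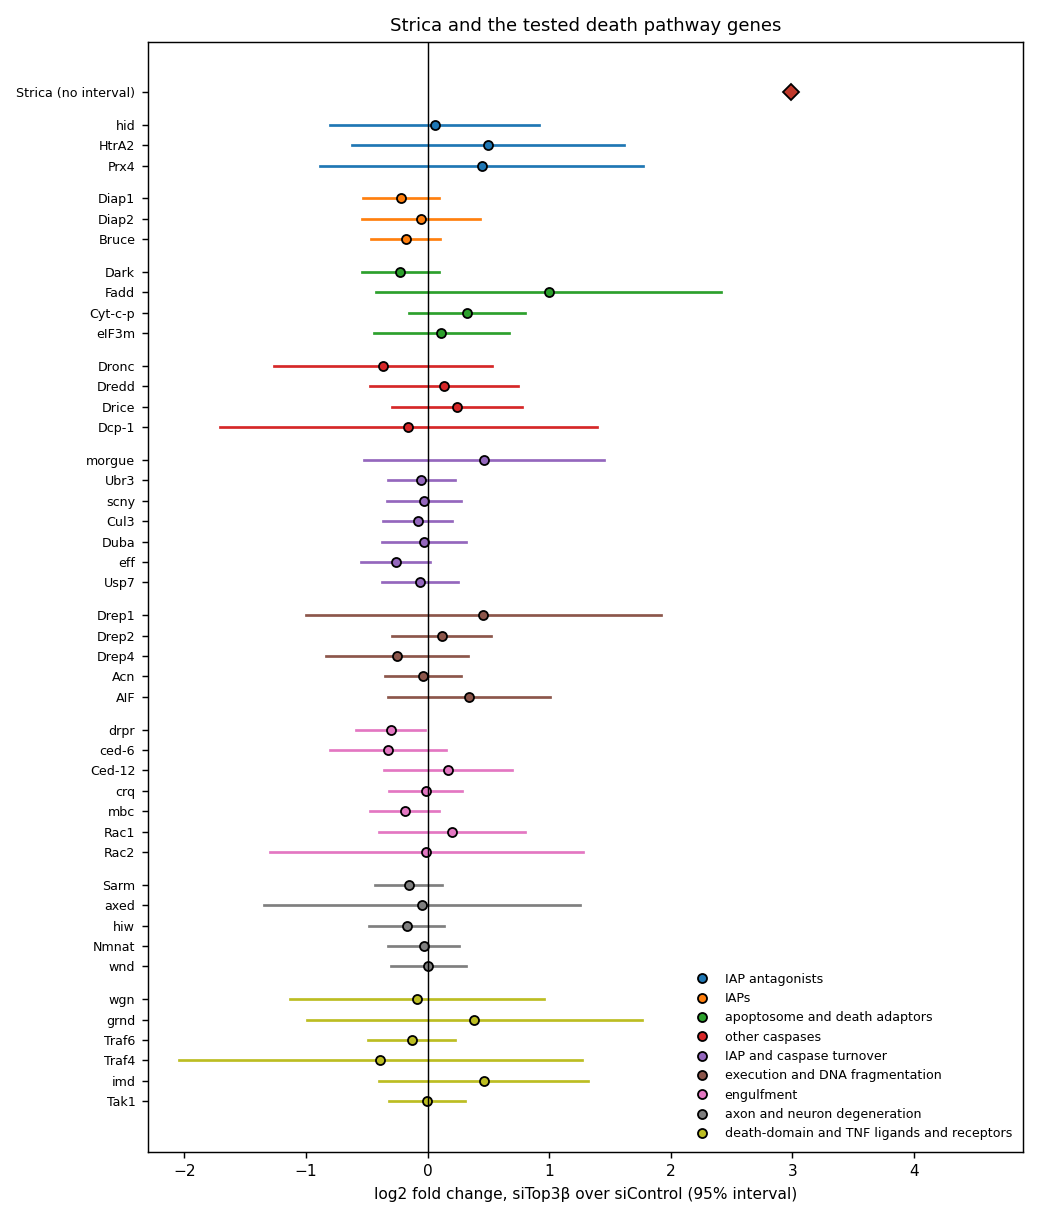
Log2 fold changes of siTop3β over siControl with 95% intervals for the 44 tested death pathway genes, grouped by role, with Strica above them as a point without interval. The 44 estimates lie between -0.39 and 1.00, and Strica is at 2.99.

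Lists of cell markers were summed to set the cell content of the libraries beside the values of Strica. Over lists for outer and inner photoreceptors, glia, other neurons, cone and pigment cells, hemocytes, fat body and muscle, none had a summed CPM that was higher in both siTop3β libraries than in both siControl libraries. The sums for outer photoreceptors, glia and fat body were lower in both siTop3β libraries. A sum can rest on 1 gene, since w made up at least 99.4% of the cone and pigment cell sum and apolpp at least 96.1% of the fat body sum. Taken singly, 5 of 43 tested markers (11.6%) were higher in both siTop3β libraries (trp, Rh6, VGAT, bw and Tm2) and 14 (32.6%) were lower in both, against 19.6% and 19.0% of all tested genes. Below the filter, the glia marker wrapper had 3.77 and 2.14 CPM in siTop3β and 0.697 and 0.858 CPM in siControl. The 12 outer photoreceptor markers, among them ninaE, the gene of Rh1, summed to 62626 and 69315 CPM in siTop3β and 70642 and 71999 CPM in siControl, with no marker at 0 and 0 of 12 called. The 7 glia markers summed to 175.3 and 184.2 CPM in siTop3β and 204.8 and 198.9 CPM in siControl, with 0 of the 6 tested called. Over all tested genes 1.21% were called, so counts of 0 in lists this short are near that share. The only tested marker called was apolpp, a lipoprotein gene of fat body, at 550.5 and 635.2 CPM in siTop3β and 884.5 and 924.6 CPM in siControl (log2 fold change -0.61, edgeR adjusted p = 0.0230). The log2 fold change was about as large, but not called, without siControl replicate 1 (-0.67, edgeR adjusted p = 0.561) or siControl replicate 2 (-0.59, edgeR adjusted p = 0.547), which leave 1 siControl library, and when all genes with a count were fitted (-0.65, edgeR adjusted p = 0.0828). The part of these markers in the difference of Strica was not tested. The fat body markers Fbp1, Fbp2 and Yp1 had 0 to 3 counts in each library except siTop3β replicate 1, where Fbp1 had 6 and Yp1 had 48. In the fit of all genes with a count Yp1 was called higher (log2 fold change 4.51, edgeR adjusted p = 0.0124), a difference that rests on that library. The pigment gene w had 8574 and 11661 CPM in siTop3β and 7362 and 8589 CPM in siControl (log2 fold change 0.34, edgeR adjusted p = 0.589), and was called without siTop3β replicate 1 (0.55, edgeR adjusted p = 0.00872). The labels list a w marker on several transgenes of these flies, so its counts need not come from pigment cells.

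The genes whose pattern over the 4 libraries was most like that of Strica were found by Euclidean distance. It was taken between log2 CPM profiles with a prior count of 2, each centred on its own mean. The prior count shrinks the differences of genes with few counts, so their distances and ranks depend on it. The nearest were CG34049 at a distance of 0.59, Rgk2 at 0.69, CG10936 at 0.90, CG17242 at 0.96 and sowi at 0.97. Their fitted log2 fold changes were 3.66, 2.69, 2.14, 2.62 and 2.02 in this order, and in all 5 the siTop3β libraries were above the siControl libraries. CG34049 and CG17242 are low, with 14 and 12 counts in siTop3β against 1 and 1 in siControl for CG34049, and 11 and 13 in siTop3β against 2 and 2 in siControl for CG17242. They lie beside each other on chromosome 2L, at 2264231 to 2265321 and 2268106 to 2269140. Rgk2, which encodes a small GTP-binding protein of the RGK family, had 24.7 and 36.3 CPM in siTop3β and 5.34 and 4.01 CPM in siControl. With 4 libraries in 2 groups, such a distance describes likeness mainly in the difference between the groups. None of the 7 other tested members was among them, and the closest, Drice, was at a distance of 2.61, with 1452 genes nearer.

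**Figure D5:**
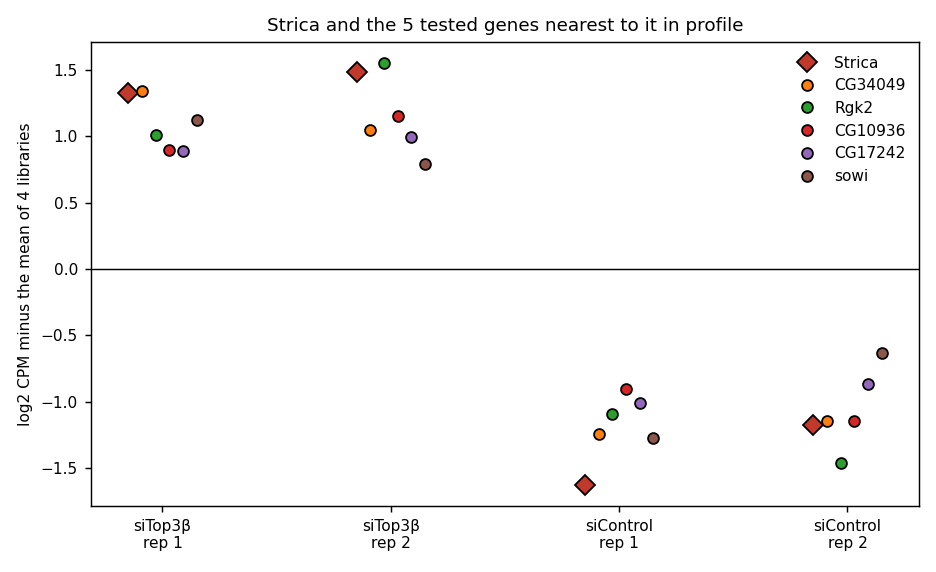
Log2 CPM minus the mean over the 4 libraries for Strica (diamonds) and the 5 tested genes nearest to it in profile (circles). Values are shown for each library and include the prior count of 2. All 6 genes are above their mean in both siTop3β libraries and below it in both siControl libraries, and Strica lies between 1.33 and 1.49 in siTop3β and between -1.63 and -1.18 in siControl.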

How the data were processed

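Nuclear RNA of Day 30 photoreceptors was compared between 2 siTop3β and 2 siControl libraries, grouped by the treatment in the sample labels. The authors deposited raw counts per gene. The submitters' processing notes name Trimmomatic, STAR, SAMtools and DESeq2 and the build dm6 (BDGP6), but the counting tool, its annotation and its use of strand are not given in the sources used here. Columns left unused numbered 0.

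Counts were analysed with edgeR 4.0.16 in R 4.3.3: TMM factors, the filter on low counts by group, and the quasi-likelihood test in its robust form, with p-values adjusted by Benjamini-Hochberg over 7029 genes at 0.05, with no replicate block. The standard error was derived from the test, and intervals are 95%. The test was checked on simulated counts. DESeq2 1.42.0 was an alternative. Symbols and positions came from gene names and the Ensembl release 115 annotation, which covered 13866 of 13929 identifiers, and all 112 listed symbols were matched.

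The members and lists were chosen with earlier results of these data known. Named are the members, genes overlapping them, Top3β, listed genes that were called or had the smallest p in their list, and the 5 nearest profiles. Other neighbours and listed genes (SCAP, Src42A, CG14591, Diap2, Bruce, rpr, grim, skl, Fadd, Debcl, Buffy, Drep4, Sarm, egr, ninaE, trp, Rh6, VGAT, bw, wrapper, Fbp1, Fbp2, Yp1) were chosen after their values were seen. The study's methods describe replicates of its sequencing experiments as independent pools of male flies, in a larger number than the 2 libraries per group analysed here. The labels do not describe the pools, and p-values measure the spread between these libraries. Intervals on fold changes were derived from the same test, so they reflect that spread too. Floors on counts of 0 cover counting error only.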

Additional observations from a re-analysis of the deposited data

How the results depend on the processing

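Of the 7 tested members other than Strica, the caspases among them and the 44 tested death pathway genes, 0 were called under every alternative run: other normalizations, both filters, DESeq2, a threshold of 0.1, the replicate block, the crossed block and each library left out. Not every run tested all of these genes. DESeq2 gave an adjusted p to 4 of the 7 members, 2 of the 4 tested caspases and 30 of the 44 death pathway genes. The filter of at least 10 counts in every library kept 6, 3 and 34 of them. Leaving out a library leaves 1 in its group, which is assumed to vary like the other group, so these fits say little about stability. The count over the whole table moved more: 85 genes, against 138 with at least 10 counts in every library, 51 with the DESeq2 Wald test and 134 at an adjusted p under 0.1, and 52 to 424 with 1 library left out. With the replicate block it was 60, and the block changed no call of a member. Deviations from the group means correlated at -0.12 between same-numbered libraries. With 2 libraries per group the deviations mirror each other, so this value cannot show whether the numbers pair them. With the numbers crossed, an alternative added after seeing the data, 211 genes were called. The log2 fold change of Strica was 2.94 to 3.04 under the other settings and 2.71 to 3.23 with 1 library left out. Signs turned for some uncalled genes when 1 library was left out: Dronc from -0.79 to 0.22, Dcp-1 from -0.76 to 0.65, Dredd from -0.33 to 0.46, hid from -0.51 to 0.43, Top3β from -0.0174 to 0.22, HtrA2 from -0.16 to 1.40, AIF from -0.0379 to 0.61, hiw from -0.39 to 0.03 and Hml, a hemocyte marker, from -0.25 to 0.63. DESeq2 gave hid -0.0015. The causes were not tested. Depth limits Dcp-1, Damm and Decay most, with 0 to 13 counts a library.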
